A study of Mus musculus with 7 samples.

Results

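The genes described here are 10 imprinted genes of the developing brain, *Igf2*, *H19*, *Meg3*, *Dlk1*, *Peg3*, *Plagl1*, *Ndn*, *Grb10*, *Mest* and *Nnat*, taken from the 38124 genes of the count table by their Ensembl identifiers. All 10 were found in the table, and 8 of them were among the 16522 genes left by edgeR's low-count filter. *Igf2* and *H19* did not pass it and are given by their counts. RNA-Seq had been carried out on 7 libraries of High RFP cells, the most strongly fluorescent cells sorted from embryonic mouse neocortex at E15.5, 48 hr after *in utero* electroporation at E13.5. All 7 libraries came from heterozygous *Tis21*-CreERT2 embryos exposed to tamoxifen, in which a CreERT2 cassette stands in place of exon 1 of *Tis21* on the targeted allele. The 3 control libraries (replicates 1, 2 and 4) carried a pCAGGS plasmid with a floxed membrane GFP followed by nuclear RFP, and the 4 Sox9-labelled libraries (replicates 1 to 4) carried the same plasmid with the *Sox9* coding sequence before the RFP. Cre is made in progenitors that give rise to basal progenitors (BPs), and RFP is also kept by their progeny, so that the sorted cells were a mixture. Cells of several embryos were pooled for a sort.

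An imprinted gene is transcribed mainly from the maternal or mainly from the paternal copy, a choice set by DNA methylation laid down in the germ line and kept at imprinting control regions. Imprinted genes lie in domains that share such a region, often with a paternally expressed protein-coding gene beside a maternally expressed non-coding RNA, as for *Igf2* and *H19* or *Dlk1* and *Meg3*. Many of them act on growth of the embryo, and several are strongly transcribed in developing neurons and in cells of vessels, meninges and choroid plexus. The counts do not separate the parental alleles, so all values below are sums over both copies.

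Libraries held between 4429704 and 12907778 counts on genes, with medians of 11592511 in control and 7428918 in the Sox9-labelled libraries. *Sox9*, the gene carried by the construct, was not higher in the Sox9-labelled libraries, at 40.0 ± 8.33 CPM (SD, n = 4) against 63.9 ± 27.5 (SD, n = 3) in control, and its log2 fold change was -0.68 (standard error, SE, of 0.25, adjusted p = 0.0493, edgeR). Among markers of the neural lineage, named after their values were seen, *Eomes* of intermediate progenitors had 264, 494 and 437 counts in control against 71, 65, 77 and 33, and *Olig2* of the oligodendrocyte lineage 0, 2 and 0 against 24, 6, 12 and 7. By qPCR, the authors found *Sox9* mRNA highest in High RFP cells of Sox9-electroporated neocortex, in cells sorted for that assay. Why the measures differ was not tested. Directions below follow the labels. Here CPM are TMM-scaled counts, per 1000000 counts of a library. Markers of neurons, the progeny of BPs, summed to between 13200 and 17900 CPM over all 7 libraries, against 518 to 820 for intermediate progenitor markers. Over all genes tested, 14.7% were called, that is, had an adjusted p-value under 0.01 (edgeR's quasi-likelihood test, two-sided, Benjamini-Hochberg adjustment over all genes tested), with 11.3% higher and 3.43% lower in the Sox9-labelled libraries. These shares stand for 1862 and 567 genes, against 363 and 284 with cyclic loess normalization and 1498 and 104 on log2(FPKM + 0.1). Astrocyte markers moved in both directions, with 3 of 8 tested called higher (*Slc1a2*, *Agt* and *S100b*) and 3 lower (*Aldoc*, *Aldh1l1* and *Sparcl1*), genes named after their values were seen. Of the 3 called higher, 2 (*Agt* and *S100b*) were tested only because of the Sox9-labelled libraries, as fewer than 3 controls reached the low-count filter. *Aldoc*, at 1289, 3505 and 2569 counts against 342, 606, 325 and 143, had the most counts of the list in every control, and the list summed to 253 to 462 CPM in control and 117 to 141 in the Sox9-labelled libraries, whereas *S100b* had 1, 1 and 6 against 24, 15, 10 and 7.

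Windows of 250 bases before the annotated starts were read from RefSeq (GRCm38.p6, the assembly also called mm10), which gave 16 starts for 9 members and none for *H19*. They are shown for *Dlk1* and *Meg3*, neighbours in one domain, for both starts of *Grb10*, the member that was called lower, and for *Peg3*, which held a match to the palindrome bound by Plagl1, itself a member. Sequences run 5′ to 3′ on the strand of the gene and end at the base before the start, with matches to the searched motifs in capitals.

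*Dlk1*, chr12:109452573-109452822, forward strand: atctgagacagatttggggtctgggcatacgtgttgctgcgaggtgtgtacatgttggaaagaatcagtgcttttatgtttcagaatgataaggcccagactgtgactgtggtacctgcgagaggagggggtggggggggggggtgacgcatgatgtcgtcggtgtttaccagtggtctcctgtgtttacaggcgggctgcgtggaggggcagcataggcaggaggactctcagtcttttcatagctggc
*Meg3* (start 1), chr12:109540746-109540995, forward strand: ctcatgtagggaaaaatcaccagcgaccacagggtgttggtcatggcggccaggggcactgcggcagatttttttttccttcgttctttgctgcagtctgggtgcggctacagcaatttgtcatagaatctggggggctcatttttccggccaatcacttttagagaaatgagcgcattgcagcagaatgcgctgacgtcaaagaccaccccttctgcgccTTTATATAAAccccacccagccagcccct
*Grb10* (start 1), chr11:12037421-12037670, reverse strand: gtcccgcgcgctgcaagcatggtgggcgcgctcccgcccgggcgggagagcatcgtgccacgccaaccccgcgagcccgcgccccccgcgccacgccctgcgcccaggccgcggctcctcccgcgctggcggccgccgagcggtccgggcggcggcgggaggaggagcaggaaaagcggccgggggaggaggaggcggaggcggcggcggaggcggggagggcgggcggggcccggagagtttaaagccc
*Grb10* (start 2), chr11:12027972-12028221, reverse strand: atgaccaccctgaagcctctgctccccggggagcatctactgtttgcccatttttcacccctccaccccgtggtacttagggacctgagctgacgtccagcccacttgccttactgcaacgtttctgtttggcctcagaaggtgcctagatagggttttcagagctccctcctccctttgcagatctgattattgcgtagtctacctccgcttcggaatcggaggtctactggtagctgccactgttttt
*Peg3*, chr7:6730420-6730669, reverse strand: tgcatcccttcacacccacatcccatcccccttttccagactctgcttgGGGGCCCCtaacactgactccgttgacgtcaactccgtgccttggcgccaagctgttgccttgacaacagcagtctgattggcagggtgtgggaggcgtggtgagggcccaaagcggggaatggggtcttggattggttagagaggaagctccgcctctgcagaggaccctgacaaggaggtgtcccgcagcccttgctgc

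The motifs searched on both strands were AACAAT (reverse complement ATTGTT), a core recognised by SOX proteins, the palindrome GGGGCCCC recognised by Plagl1, and TATAAA (reverse complement TTTATA), the TATA box. Of all 32851 windows of this length in the table, 9.42% held the SOX core, 0.889% the Plagl1 palindrome and 12.4% the TATA box. Matches were found for 3 members. *Meg3* held TATAAA from 25 to 20 bases before start 1, overlapping a TTTATA on the other strand, *Peg3* held GGGGCCCC from 201 to 194 bases before its start, and *Igf2* held ATTGTT from 55 to 50 bases before start 2 of its 4 starts. The windows of *Dlk1*, *Grb10*, *Plagl1* and *Nnat* held none of these letters. The window of *Grb10* start 1 contained 40 CpG dinucleotides, and 98.7% of all windows had fewer, whereas start 2 of *Grb10* and the window of *Dlk1* had 8 each, against a median of 6 over all windows.

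The members spanned a wide range of transcript levels. Per exonic kilobase, *Nnat*, which encodes the membrane proteolipid neuronatin, was the highest in control with 269.8 CPM per kb (lowest 234.4, highest 323.8), and 99.0% of protein-coding genes tested were below it. *Ndn*, encoding the growth suppressor necdin, followed at 35.3 CPM per kb and *Grb10* at 10.3, each with no overlap between its control libraries and those of the next gene. *Peg3* (4.50), *Mest* (3.17) and *Plagl1* (2.44) came next, and the ranges of neighbours among these overlapped. *Meg3* (0.916) and *H19* (0.862) also overlapped, as did *Dlk1* (0.125) and *Igf2* (0.0704), the lowest of the 10. In the Sox9-labelled libraries the order began again with *Nnat* (365.5) and *Ndn* (33.7). *Grb10* (4.44), *Mest* (4.28) and *Peg3* (4.16) then overlapped as neighbours, and so did *Plagl1* (1.44), *Meg3* (1.33) and *Dlk1* (0.842), so that *Dlk1* had left the bottom of the order, which *H19* (0.221) and *Igf2* (0.109) now held. *Igf2* was below all but 0.161% of the protein-coding genes tested there and all but 2.64% in control. As *Igf2* did not pass the filter and those genes did, a place near the bottom was largely set in advance. No change of *Igf2* between the groups is read from these shares.

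**Figure D1:**
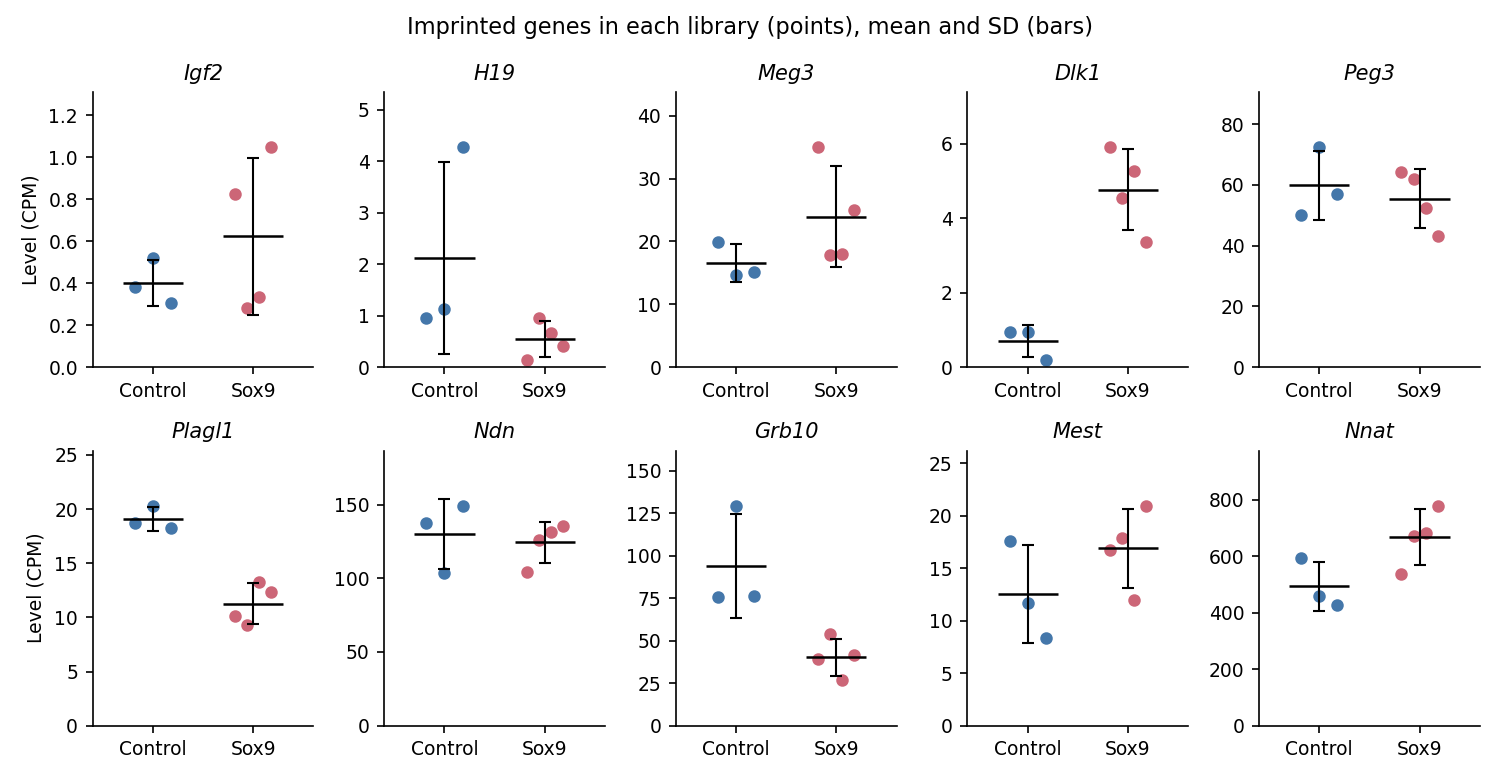
Level of each of the 10 imprinted genes in CPM (vertical axes, each starting at 0 with its own scale) in the 3 control libraries and the 4 Sox9-labelled libraries; points are libraries, horizontal bars means and vertical bars SD. All 4 Sox9 points lie above the controls for *Dlk1* and below them for *Grb10*, *Plagl1* and *H19*, while the points of the other 6 genes overlap.

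Of the 8 members tested, 1 was called higher and 1 lower, shares to be read against the 11.3% and 3.43% of all genes. The groups did not overlap for 1 member that was higher and 2 that were lower, where 22.9% and 16.4% of all genes tested did so. The median log2 fold change was 0.18 over the 8 members and -0.0031 over all genes tested. *Dlk1* passed the filter only through the Sox9-labelled libraries, so it could enter these counts only as a gene that was higher there, and nothing is read from them about the members as a group.

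*Dlk1* (ENSMUSG00000040856, chr12:109452823-109463336, forward strand) encodes a transmembrane protein of the Delta-like family that acts as a non-canonical Notch ligand and is paternally expressed. It had 10, 11 and 2 counts in control replicates 1, 2 and 4, and 43, 48, 47 and 16 counts in the Sox9-labelled libraries (replicates 1 to 4). All 4 Sox9-labelled libraries were above every control, although their median depth was lower. The low-count filter asked for 0.956 CPM, before TMM scaling, in at least 3 libraries. None of the controls reached it, so *Dlk1* was tested only through the libraries in which it was high, and requiring at least 10 counts in every library removed it. In CPM, *Dlk1* rose from 0.705 ± 0.434 (SD, n = 3) to 4.76 ± 1.09 (SD, n = 4), a 6.6-fold change with a log2 fold change of 2.72 (SE 0.48, adjusted p = 0.00139, edgeR). With cyclic loess normalization the call was lost, at a log2 fold change of 1.66 (adjusted p = 0.0259, limma). Of the 2320 genes whose average level lay within 0.5 log2 units of *Dlk1*, 25.8% were called higher, their median log2 fold change was 0.94, and 5.99% had a fold change at least as high as *Dlk1*.

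*Meg3* (ENSMUSG00000021268, chr12:109541001-109571726, forward strand), the maternally expressed long non-coding RNA of the same domain, had 209, 168 and 149 counts in control against 255, 189, 161 and 119 in the Sox9-labelled libraries. Its CPM were 16.6 ± 2.96 in control and 24.0 ± 8.09 in the Sox9-labelled libraries, with the highest value in replicate 1 of the latter and overlap between the groups. The log2 fold change of 0.52 (SE 0.24) was not called (adjusted p = 0.110, edgeR), and was 0.30 without Sox9 replicate 1 (adjusted p = 0.338). As *Meg3* shares 1228 exonic bases with *Gm26906* on the opposite strand and the use of strand in counting is not given in the sources used here, some reads may belong to either gene.

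The relation of the 2 neighbours was also read within each library, where a scale factor common to all genes of a library cancels. A shift that depends on the level does not cancel, and the median log2 fold change of all genes was 0.94 at the level of *Dlk1* and -0.13 at that of *Meg3*. *Dlk1* made up 4.57%, 6.15% and 1.32% of the *Dlk1* and *Meg3* counts in control, against 14.4%, 20.3%, 22.6% and 11.9% in the Sox9-labelled libraries. The groups did not overlap. The mean share was 4.01% ± 2.46 in control and 17.3% ± 4.99 in the Sox9-labelled libraries, a difference of 13.3 percentage points (exact permutation test over 35 arrangements, two-sided, p = 0.0286, the smallest that 3 against 4 libraries can give). With cyclic loess normalization the log2 fold changes were 1.66 for *Dlk1* and 0.62 for *Meg3*, and the difference between the 2 genes was not tested there. On the deposited FPKM values, which weight the 2 genes by other lengths, the difference in share was 26.8 percentage points.

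**Figure D2:**
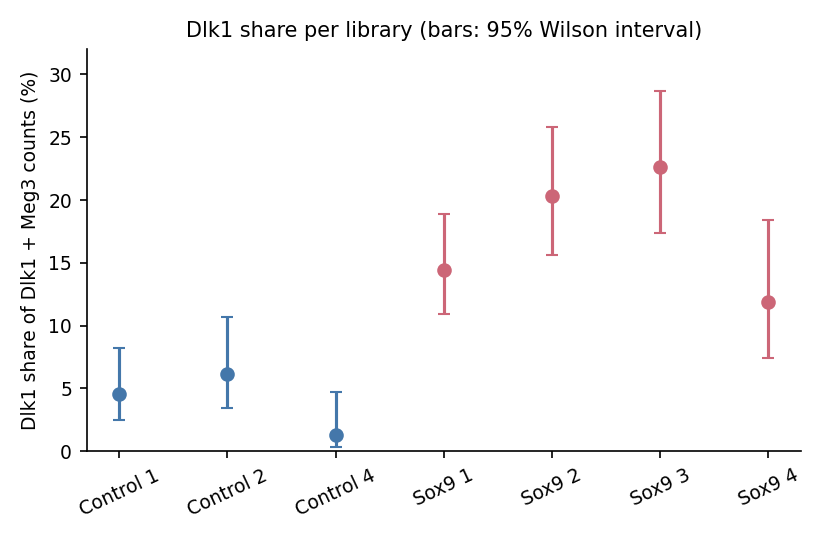
*Dlk1* counts as a percentage of *Dlk1* plus *Meg3* counts (vertical axis) in each of the 7 libraries (horizontal axis), with 95% Wilson intervals, which cover counting error only. The 4 Sox9-labelled libraries lie between 11.9% and 22.6% and the 3 controls between 1.32% and 6.15%.

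Other genes of this domain were measured as well. *Rian*, a maternally expressed host of small nucleolar RNAs and microRNAs, had 119, 62 and 79 counts in control against 154, 213, 163 and 75 in the Sox9-labelled libraries, and rose with a log2 fold change of 1.19 (SE 0.25, adjusted p = 0.00377, edgeR). Its call was lost without control replicate 4 (log2 fold change 1.19, adjusted p = 0.0116) or control replicate 2 (0.965, adjusted p = 0.0148), and on log2(FPKM + 0.01) (1.39, adjusted p = 0.0104, limma). *Mirg*, another microRNA host, had 5, 3 and 6 counts against 16, 11, 11 and 9, without overlap in CPM, and was not called (log2 fold change 1.77, adjusted p = 0.0236). It passed the filter only through the Sox9-labelled libraries, the median log2 fold change of genes at its level was 1.56, and with cyclic loess normalization its own was 0.03 (adjusted p = 0.975, limma). *Rtl1* and *Dio3*, paternally expressed genes of the domain, were under the filter, with at most 9 and 4 counts in any library.

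*Igf2* (ENSMUSG00000048583, chr7:142650766-142666816, reverse strand) encodes insulin-like growth factor 2, a paternally expressed growth factor that in the brain is made largely by choroid plexus, meninges and vessels. It had 4, 6 and 3 counts in control against 6, 3, 3 and 5 in the Sox9-labelled libraries. These few reads did not separate the groups. In CPM, *Igf2* was at 0.403 ± 0.110 in control and 0.623 ± 0.374 in the Sox9-labelled libraries (two-sided exact permutation test, p = 0.4), and the ratio of summed rates was 1.32 with a 95% interval from 0.602 to 2.95, which covers counting error only. A difference within that interval was not detectable at this depth. *Igf2* shares 3596 exonic bases with *Gm49394*, an annotated gene that the count table does not list.

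*H19* (ENSMUSG00000000031, chr7:142575529-142578143, reverse strand), the maternally expressed non-coding RNA next to *Igf2*, had 10, 13 and 42 counts in control against 1, 10, 6 and 2 in the Sox9-labelled libraries. All 4 Sox9-labelled libraries were below the lowest control, but the highest of them, replicate 2, was close to it, at 0.945 CPM against 0.956 in control replicate 1. Both held 10 counts, of 10520214 in Sox9 replicate 2 and 11592511 in control replicate 1, so their order rests on the TMM factors. The mean was 2.12 ± 1.87 CPM in control and 0.543 ± 0.345 in the Sox9-labelled libraries (two-sided exact permutation test, p = 0.0286). On the deposited FPKM values the groups overlapped, with 0.364 in Sox9 replicate 2 against 0.33 in control replicate 1. The same exact permutation test gave p = 0.0571 there. The ratio of summed rates was 0.294 (95% interval 0.167 to 0.497), and 0.575 (0.296 to 1.10) without control replicate 4, which held 42 of the 65 control counts. These intervals cover counting error only, not the spread between libraries. *Igf2* made up 22.3% ± 13.6 of the *Igf2* and *H19* counts in control and 53.4% ± 30.0 in the Sox9-labelled libraries, a difference of 31.1 percentage points (two-sided exact permutation test, p = 0.229). With a library left out, this difference ranged from 20.3 (without Sox9 replicate 1) to 41.2 (without Sox9 replicate 2).

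*Grb10* (ENSMUSG00000020176, chr11:11930508-12038683, reverse strand) encodes an adaptor that binds insulin and IGF receptors and restrains their signaling. It is maternally expressed in most tissues and paternally expressed in neurons. Its counts were 795, 1490 and 749 in control and 287, 568, 242 and 197 in the Sox9-labelled libraries. Every Sox9-labelled library was below every control, and control replicate 2 stood above the other controls. *Grb10* fell from 93.9 ± 30.8 CPM to 40.4 ± 10.9, 2.32-fold, with a log2 fold change of -1.22 (SE 0.22, adjusted p = 0.00162, edgeR). Among the 1806 genes within 0.5 log2 units of its level, the median log2 fold change was -0.22 and 0.941% fell at least as much as *Grb10*. The call was lost with cyclic loess normalization (log2 fold change -0.99, adjusted p = 0.0127, limma) and on log2(FPKM + 0.1), at -0.83 (adjusted p = 0.0418, limma), and the call was kept without any single library.

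A neighbour of *Grb10* was called in the other direction. *Ddc*, encoding the decarboxylase that makes dopamine and serotonin, had 5, 14 and 9 counts in control against 27, 29, 36 and 29 in the Sox9-labelled libraries, with a log2 fold change of 2.20 (SE 0.46, adjusted p = 0.00359, edgeR). This call was lost with cyclic loess normalization (1.13, adjusted p = 0.0768, limma), on log2(FPKM + 0.1) (0.475, adjusted p = 0.0121, limma) and without control replicate 1 (1.89, adjusted p = 0.0148) or control replicate 4 (2.24, adjusted p = 0.0106). *Cobl*, an actin nucleator, was at 4, 8 and 4 against 15, 8, 8 and 13 counts and was not called (1.58, adjusted p = 0.0545). At the level of *Ddc*, the median log2 fold change of all genes was 1.11. Only 1 control reached the filter for *Ddc* and 0 for *Cobl*, so both were tested only because of the Sox9-labelled libraries.

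*Plagl1* (ENSMUSG00000019817, chr10:13060504-13131694, forward strand), also called Zac1, encodes a zinc finger transcription factor that restrains proliferation, is paternally expressed and acts on several other imprinted genes. It had 196, 234 and 179 counts in control against 74, 98, 119 and 59 in the Sox9-labelled libraries. The groups were apart, with 18.2 to 20.3 CPM in control and 9.26 to 13.3 in the Sox9-labelled libraries. The mean was 19.1 ± 1.11 CPM against 11.3 ± 1.88, a log2 fold change of -0.76 (SE 0.20), and its adjusted p-value of 0.0112 (edgeR) was just over the threshold. It was under the threshold with DESeq2 (adjusted p = 0.00139), with DESeq2's size factors in edgeR (0.00908) and without a filter (0.00304). It was over it with cyclic loess normalization (0.0375, limma), with at least 10 counts required in every library (0.0605, edgeR), with any 1 library left out (0.016 to 0.0465, edgeR) and on log2(FPKM + 0.1) and log2(FPKM + 0.01), where the log2 fold change was -0.36 (adjusted p = 0.112, limma) and -0.52 (adjusted p = 0.142). Of the genes at its level, 6.47% had a log2 fold change as low or lower, and their median was -0.085.

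Markers of progenitors were lower in the same libraries. Of 11 radial glia markers tested, 7 were called lower, and the sum over the list was 1070 to 1760 CPM in control and 613 to 678 in the Sox9-labelled libraries. Of 8 intermediate progenitor markers, 2 were called lower, with sums of 735 to 820 CPM against 518 to 645. Of all genes, 3.43% were called lower. In sorted pools, fewer cells of a type and less RNA per cell cannot be told apart. The part of these markers in the values of *Grb10* and *Plagl1* was not tested.

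*Nnat* (ENSMUSG00000067786, chr2:157560078-157562522, forward strand), paternally expressed and lying within *Blcap* on the opposite strand, had 6197, 5288 and 4214 counts in control against 3915, 7127, 6111 and 3719 in the Sox9-labelled libraries. In CPM, 3 of the 4 Sox9-labelled libraries were above the highest control, 592.3, and replicate 1, at 537.7, was below it. The mean was 493.5 ± 87.0 CPM in control and 668.6 ± 99.6 in the Sox9-labelled libraries, with a log2 fold change of 0.44 (SE 0.14) that was not called (adjusted p = 0.0302, edgeR). With cyclic loess normalization it was called, at 0.71 (adjusted p = 0.00528, limma). Of the 220 genes within 0.5 log2 units of its level, 0.909% had a log2 fold change at least as high, and their median was -0.29. *Nnat* thus stood at the upper end of the genes transcribed as strongly, by description.

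*Mest* (ENSMUSG00000051855, chr6:30723547-30748465, forward strand), a paternally expressed gene for a hydrolase-like protein, had 184, 134 and 82 counts in control against 122, 189, 107 and 100 in the Sox9-labelled libraries. The groups overlapped at 12.5 ± 4.69 and 16.9 ± 3.74 CPM, and the log2 fold change of 0.42 (SE 0.26) was not called (adjusted p = 0.236, edgeR). It was 0.73 without control replicate 1 (adjusted p = 0.0581) and 0.22 without control replicate 4 (adjusted p = 0.57), and was called under no setting tried. *Mest* shares 912 exonic bases with *Copg2* on the opposite strand.

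*Peg3* (ENSMUSG00000002265, chr7:6703892-6730431, reverse strand), a paternally expressed zinc finger gene, had 525, 834 and 561 counts in control against 468, 655, 469 and 206 in the Sox9-labelled libraries. Its level was 59.9 ± 11.4 CPM against 55.5 ± 9.64, with a log2 fold change of -0.11 (SE 0.17, adjusted p = 0.657, edgeR). *Usp29*, which starts beside *Peg3* on the other strand, was not called either (log2 fold change -0.47, SE 0.28, adjusted p = 0.214). The sign for *Peg3* turned under several of the settings tried, so that neither direction is given for it.

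*Ndn* (ENSMUSG00000033585, chr7:62346569-62350262, forward strand), of the Prader-Willi domain, had 1439, 1195 and 1469 counts in control against 757, 1336, 1177 and 647 in the Sox9-labelled libraries. Levels were 130.3 ± 23.7 CPM and 124.4 ± 14.1, and the log2 fold change of -0.07 (SE 0.14) was not called (adjusted p = 0.75, edgeR) and changed sign with other settings. *Peg12*, an intronless gene of the same domain derived from the Frat family of Wnt signaling proteins, had 729, 1484 and 946 counts in control against 287, 463, 276 and 131 in the Sox9-labelled libraries. It fell with a log2 fold change of -1.47 (SE 0.20, adjusted p = 0.00029, edgeR), while *Mkrn3* (-0.16, adjusted p = 0.757) and *Ube3a* (-0.08, adjusted p = 0.653) were not called.

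**Figure D3:**
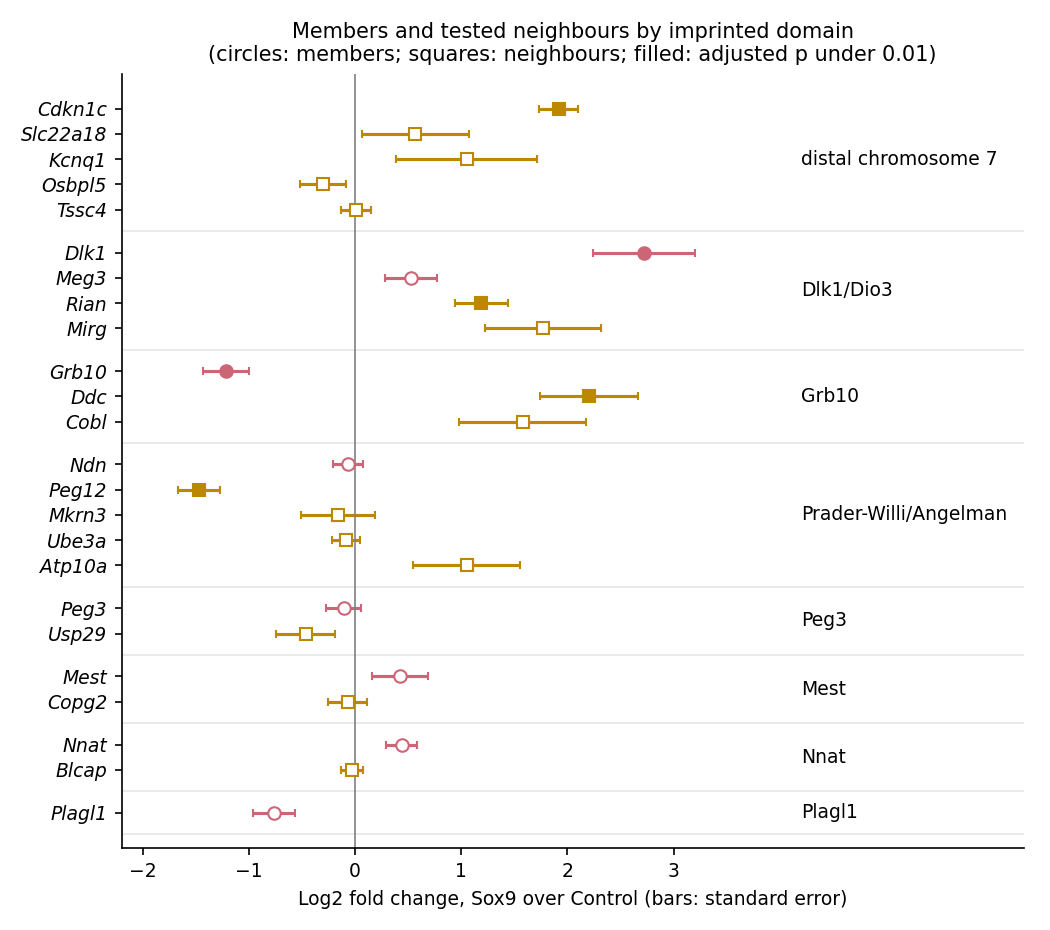
Log2 fold change of the 8 tested members (circles) and of tested imprinted genes of the same domains (squares), with standard errors (horizontal axis); filled symbols have an adjusted p-value under 0.01. Within the Dlk1/Dio3 domain *Dlk1* (2.72) and *Rian* (1.19) are filled, within the Grb10 domain *Grb10* (-1.22) and *Ddc* (2.20) lie on opposite sides of 0, and *Peg12* (-1.47) is filled where *Ndn* (-0.07) is not. *Dlk1* and *Ddc*, like some other genes shown, passed the filter only through the Sox9-labelled libraries. The median of all genes was 0.94 at the level of *Dlk1*, 1.11 at that of *Ddc* and -0.22 at that of *Grb10*.

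The 10 members together took up 0.0712% to 0.0825% of all control counts, against 0.0889% to 0.114% in the Sox9-labelled libraries. These ranges did not overlap, with means of 0.0754% ± 0.00619 and 0.101% ± 0.0108 (two-sided exact permutation test, p = 0.0571), a difference of 0.0255 percentage points that was 0.0821 on the deposited FPKM values. Most of these counts were on *Nnat*, which had 15699 counts over the controls and 20872 over the Sox9-labelled libraries. These shares are of total counts, without the TMM factors, which were 0.893 to 0.941 in control and 1.01 to 1.1 in the Sox9-labelled libraries. After TMM scaling *Nnat* overlapped between the groups, at 428.7 to 592.3 CPM in control and 537.7 to 779.9 in the Sox9-labelled libraries. The gap between the summed shares is therefore not read as a rise of the members.

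A list of 50 other imprinted mouse genes was examined in the same fit. Of these, 46 were in the count table by identifier and 37 were tested, of which 8 were called higher and 1 lower, beside 11.3% and 3.43% of all genes. For 11 of the 37, fewer than 3 controls reached the filter, so these were tested only because of the Sox9-labelled libraries, and nothing is read from these counts about imprinted genes as a class. The median log2 fold change was 0.01. The count of calls was 4 without control replicate 4 and 5 without control replicate 2.

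The 6 of the genes called higher with the smallest adjusted p-values included *Rian* and *Ddc*. *Cdkn1c*, encoding the cyclin-dependent kinase inhibitor p57Kip2, which is expressed from the maternal copy in the cluster next to *Igf2*, had 363, 378 and 403 counts in control against 1270, 1652, 913 and 549 in the Sox9-labelled libraries. It rose from 36.2 ± 4.27 to 136.9 ± 34.0 CPM (log2 fold change 1.92, SE 0.18, adjusted p = 3.7e-05, edgeR). *Asb4*, encoding a substrate adaptor of a ubiquitin ligase, had 29, 27 and 27 counts in control against 143, 228, 110 and 95 in the Sox9-labelled libraries. Its log2 fold change was 2.80 (SE 0.27, adjusted p = 3.9e-05, edgeR). At the levels of *Cdkn1c* and *Asb4* the medians over all genes were -0.25 and -0.05, and both genes were called under all 18 other settings tried.

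*Sfmbt2*, a Polycomb group gene, rose from 3.81 ± 1.94 to 12.8 ± 4.01 CPM (log2 fold change 1.75, SE 0.37, adjusted p = 0.00385, edgeR). *Peg10*, a gene derived from a retrotransposon, rose from 0.966 ± 0.158 to 4.19 ± 1.46 CPM (2.09, SE 0.43, adjusted p = 0.0031, edgeR). *Peg10* reached the filter in 1 control, so it too was tested only because of the Sox9-labelled libraries, and the median of all genes at its level was 1.05. The call of *Peg10* was lost with cyclic loess normalization (1.01, adjusted p = 0.075, limma), without control replicate 1 (2.06, adjusted p = 0.0103), control replicate 4 (2.00, adjusted p = 0.0109) or Sox9 replicate 1 (1.84, adjusted p = 0.01), and that of *Sfmbt2* with cyclic loess normalization (1.59, adjusted p = 0.0118, limma), on log2(FPKM + 0.1) (0.47, adjusted p = 0.0218, limma) and log2(FPKM + 0.01) (1.47, adjusted p = 0.0174), or without control replicate 2 (1.41, adjusted p = 0.0132), Sox9 replicate 1 (1.66, adjusted p = 0.0101) or Sox9 replicate 3 (1.64, adjusted p = 0.0142).

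**Figure D4:**
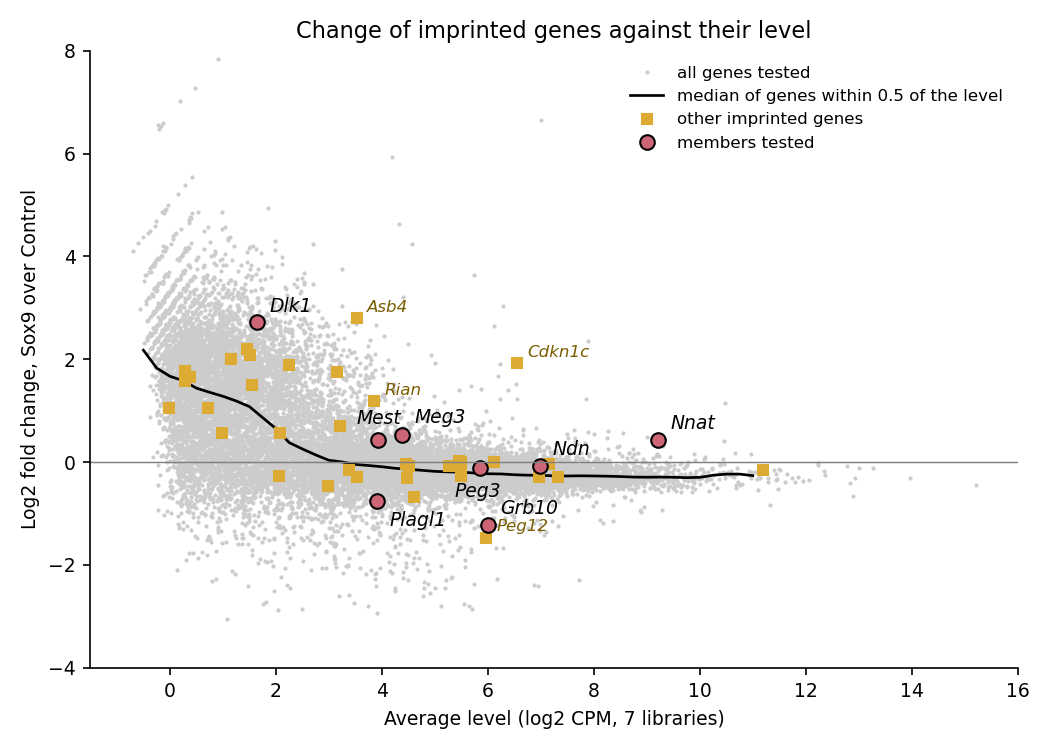
Log2 fold change (vertical axis) against the average level in log2 CPM over the 7 libraries (horizontal axis) for all 16522 genes tested (grey), the 37 other imprinted genes (squares) and the 8 tested members (circles); the line is the median of genes within 0.5 log2 units. The line lies above 0 for weakly transcribed genes, at 0.94 for the level of *Dlk1*, and below 0 for strongly transcribed ones, at -0.29 for the level of *Nnat*.

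Markers of cell types known to transcribe *Igf2* and other imprinted genes had few counts. Choroid plexus markers summed to 6.69 to 12.5 CPM in control and 17.7 to 27.5 in the Sox9-labelled libraries, endothelial markers to 6.12 to 15.6 against 20.1 to 54.3, and mural and meningeal markers to 13.6 to 15.6 against 26.4 to 50.1. Oligodendrocyte precursor markers summed to 8.03 to 8.85 CPM against 18.6 to 52.6. *Cspg4* stood in both this list and the mural and meningeal list, and entered both sums. The sums did not overlap for these 4 lists, but most of their genes lay at levels where all genes were shifted upward. Taken at the level of each tested marker and as the median over a list, the median log2 fold change of all genes was 1.02 for the endothelial list and up to 1.3 for the choroid plexus list, with the other lists between them. The tested markers themselves had higher medians, of 1.62 (endothelial), 1.79 (mural and meningeal), 2.25 (choroid plexus) and 3.7 (oligodendrocyte precursors). Fewer than 3 controls reached the filter for 6 of 7 choroid plexus markers tested, 6 of 8 endothelial, 11 of 12 mural and meningeal and 6 of 7 oligodendrocyte precursor markers, which were therefore tested only because of the Sox9-labelled libraries. With that limit, 3, 2, 2 and 5 markers of these lists were called higher, beside 11.3% of all genes and 25.8% called higher at the level of *Dlk1*, and no gain of a cell type is read from these counts. Single markers differed in direction. In the choroid plexus list, *Ttr* had 1, 6 and 1 counts in control against 54, 53, 14 and 23, whereas *Sostdc1*, named after its values were seen, had 31, 104 and 33 against 13, 14, 17 and 32. *Sostdc1* was the only marker of that list with a negative log2 fold change (-1.02, edgeR without a filter). Among defining markers of the other lists, *Cdh5* had 1, 23 and 1 counts in control against 11, 24, 26 and 6 in the Sox9-labelled libraries, *Pdgfrb* 5, 30 and 24 against 8, 3, 18 and 0, *Col1a1* 13, 7 and 5 against 46, 34, 45 and 28, and *Lum* 2, 0 and 0 against 11, 0, 3 and 3. *Pdgfrb* was likewise the only mural and meningeal marker with a negative log2 fold change (-1.13, edgeR without a filter). The part of these cell types in the values of *Dlk1*, *Cdkn1c* and *Asb4* was not tested.

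*Igf2* acts through receptors that are shared with *Igf1* and insulin, so a list of 19 genes of the IGF axis was examined. Of 15 tested, 2 were called higher and 1 lower (median log2 fold change -0.0046), against 11.3% and 3.43% of all genes. The receptors *Igf1r* (152, 124 and 168 counts against 100, 167, 165 and 68; log2 fold change 0.14, adjusted p = 0.639), *Igf2r* (449, 511 and 411 against 284, 516, 380 and 154; -0.08, adjusted p = 0.74) and *Insr* (166, 152 and 197 against 142, 225, 199 and 121; 0.43, adjusted p = 0.103) were not called. The ligand *Igf1* had 32, 52 and 17 counts against 67, 72, 121 and 46 (1.64, SE 0.35, adjusted p = 0.00417, edgeR). The protease *Pappa2*, which cleaves IGF-binding proteins, had 19, 26 and 21 against 68, 39, 46 and 29 (1.53, SE 0.38, adjusted p = 0.00837), and the binding protein *Igfbp5* had 60, 195 and 136 against 26, 58, 17 and 17 (-1.73, SE 0.39, adjusted p = 0.00498). None of the 3 was called with cyclic loess normalization (limma), and none without control replicate 4 or Sox9 replicate 3 (edgeR). Under these 3 settings in turn, the log2 fold change was 1.37, 1.38 and 1.47 for *Igf1*, -1.92, -1.62 and -1.48 for *Igfbp5*, and 0.87, 1.57 and 1.63 for *Pappa2*. On log2(FPKM + 0.1) it was 0.77 for *Igf1* (adjusted p = 0.0109, limma), -1.15 for *Igfbp5* (0.0517) and 0.22 for *Pappa2* (0.0532). Of the whole list, 6, 6 and 5 genes then had an unadjusted p-value under 0.05, against 7 in the fit to all libraries. Of 10 markers of microglia, a known source of *Igf1*, 1 was called higher and 6 were tested only because of the Sox9-labelled libraries, and the list summed to 12.4 to 41.4 CPM in control and 19.7 to 77.7 in the Sox9-labelled libraries. The marker called was *C1qa*, named after its values were seen, at 4, 6 and 5 counts against 48, 31, 31 and 3, whereas *Cx3cr1* had 13, 76 and 36 against 44, 29, 26 and 4. The part of microglia in the *Igf1* value was not tested.

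For each tested member, the genes with the most similar pattern were taken by Pearson's r of log2 CPM over the 7 libraries, which share depth and group, as a description without a test. For *Dlk1* these were *Sept12* (r = 0.995), *Gm6788* (0.991) and *Lep* (0.989), and for *Grb10* they were *Ssr1* (0.993), *Sh3bgrl* (0.992) and *Resf1* (0.992). For *Plagl1* they were *Ap1s2* (0.985), *Bmpr1b* (0.985) and *Otud5* (0.982), and for *Nnat* *Spag4* (0.987), *Fnip2* (0.985) and *Cetn4* (0.984). *Meg3*, *Peg3*, *Ndn* and *Mest* had their closest genes at r between 0.973 and 0.979. No member was among the closest genes of another.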

How the data were processed

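RNA-Seq libraries of sorted High RFP cells were analysed from the tables that the authors deposited. The authors merged lanes per sample, removed adapters (cutadapt) and mapped reads to mm10 with STAR (2.5.2b per the processing notes). They deposited unnormalized whole-number counts for Ensembl genes and FPKM values, both made by the authors. For the 10 members, the length linking counts and the deposited FPKM was 0.992 to 1.00 of the whole gene span and up to 11.9 times the exonic length (*Grb10*), so levels per kilobase were computed from counts and the exonic lengths of GENCODE M21, newer than the authors' annotation. The counting program and its use of strand are not given in the sources used here.

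Groups follow the sample titles, with all 7 libraries used. No column was left out. Where nothing else is stated, ± is the SD over libraries. Libraries are separate samples by their labels, and p-values measure the spread between them. The PCR reads carry no molecular identifiers. Counts (4429704 to 12907778 per library) were normalized by TMM, filtered with filterByExpr and tested with edgeR 4.0.16 (quasi-likelihood, two-sided) in R 4.3.3 over 16522 genes, with Benjamini-Hochberg adjustment and a threshold of 0.01. The standard error is the absolute log2 fold change divided by the square root of F. Shares and counts of genes under the filter were compared by exact permutation over 35 arrangements. The scripts were tested on simulated data. Alternatives were DESeq2 1.42.0, its size factors in edgeR, cyclic loess with limma-trend (limma 3.58.1), other filters (none, or at least 10 counts in every library), protein-coding genes only, a threshold of 0.05, blocks by replicate number, limma-trend on log2(FPKM + 0.1), a scale that understates fold changes of genes with FPKM near the pseudocount, and log2(FPKM + 0.01), and leaving out each library. Summaries used Python 3.11.15, numpy 2.4.6, pandas 2.3.3, scipy 1.17.1 and matplotlib 3.10.9.

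The members and gene lists were chosen with earlier results of these data known. Named were all members, *Sox9*, called genes of the other imprinted list (up to 6 per direction by adjusted p-value) and of the IGF list (up to 4 per direction), imprinted genes of the members' domains, *Igf1r*, *Igf2r*, *Insr*, the 3 genes most like each member, and defining markers of other cell types.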

Additional observations from a re-analysis of the deposited data

How the results depend on the processing

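The members called (2 in the analysis as reported) numbered 1 with cyclic loess, with at least 10 counts in every library (which removed *Dlk1*) and on both FPKM scales, and 4 without a filter (*Dlk1* higher, and *Grb10*, *Plagl1* and *H19* lower) or at a threshold of 0.05. Without any 1 library they numbered 2 to 2. The other imprinted genes called (9) numbered 4 with cyclic loess, 5 with at least 10 counts in every library, and 4 to 9 with a library left out. The IGF axis genes called (3) numbered 0 with cyclic loess and on log2(FPKM + 0.1) (limma, 6 and 5 at an unadjusted p under 0.05; DESeq2 called 3), 1 on log2(FPKM + 0.01), 5 at a threshold of 0.05, and 0 to 3 with a library left out. *Sox9* passed the threshold without a filter (log2 fold change -0.776), at a threshold of 0.05 (-0.676) and without control replicate 1 (-0.991), with -0.991 to -0.366 over the libraries left out. The causes were not tested.

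The sign turned only for values that no setting called. *Peg3* was at 0.108 with cyclic loess, 0.0288 with at least 10 counts, 0.11 and 0.115 on the FPKM scales, 0.054 without control replicate 2 and 0.0458 without Sox9 replicate 4, with -0.237 to 0.054 over the libraries left out. *Ndn* was at 0.187 with cyclic loess, 0.0712 with at least 10 counts, 0.169 and 0.17 on the FPKM scales, 0.0627 without control replicate 4 and 0.0344 without Sox9 replicate 1, with -0.202 to 0.0627 over the libraries left out. *Igf2r* was at 0.106, 0.0625, 0.108 and 0.126 under the first 4 of these settings and between -0.158 and 0.072 with a library left out, and *Igf1r* between -0.0148 and 0.324 with a library left out. On the FPKM scales the median log2 fold change of all genes tested was 0.139 and 0.203 instead of -0.0031, so fold changes there are relative to that shift. Over the settings tried, *Dlk1* lay between 1.66 and 3.01 and *Grb10* between -1.38 and -0.829. The 3 differences in share kept their sign on FPKM values and without any 1 library. On FPKM values they were 26.8 instead of 13.3 percentage points for *Dlk1*, 17.9 instead of 31.1 for *Igf2* and 0.0821 instead of 0.0255 for the members' sum.

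Same-numbered control and Sox9 libraries deviated from their group means with correlations of -0.0356, 0.118 and -0.00485 by the numbers in the titles. Little shared deviation was seen, but from so few pairs it cannot be told whether same-numbered libraries were prepared together. With a replicate block by titles, 2 members, 4 other imprinted genes and 0 IGF axis genes (edgeR, 6 at an unadjusted p under 0.05) were called, with *Rian*, *Ddc* and *Peg10* among the calls lost, and 400 and 218 of all genes were higher and lower instead of 1862 and 567. With a block by the numbers in the descriptions, 0 IGF axis genes were called (edgeR, 5 at an unadjusted p under 0.05), *Peg3* was at 0.000228, *Igf2r* at 0.00811, and 1034 and 353 genes were higher and lower. Without a filter 2661 and 1452 genes were called, with at least 10 counts 638 and 204, at a threshold of 0.05 3616 and 1787, on the FPKM scales 1498 and 104 or 1759 and 111, and with a library left out 827 to 1590 higher and 208 to 475 lower. DESeq2 called 1956 and 1252. Depth limits *Igf2*, *H19* and *Dlk1*, with at most 48 counts in any library.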
